A study of Mus musculus with 18 samples.

Results

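The oligoadenylate synthetase (OAS) family was followed through 5 mouse genes, Oas1a, Oas2, Oas3, Oasl1 and Oasl2, in naive CD4+ T cells treated with interleukin 27 (IL-27) or interleukin 6 (IL-6). The members were all probe sets annotated with one of these symbols and no other, which gave 5 probe sets, 1 for each gene, of 45037 probe sets on the array without its controls. They are 1424775_at (Oas1a), 1425065_at (Oas2), 1425374_at (Oas3), 1424339_at (Oasl1) and 1453196_a_at (Oasl2). All 5 passed the filter on low signal, which kept 26860 probe sets. Oas1a and Oas2 lay above the median of their own array on 18 of 18 arrays, Oasl1 on 17, and Oas3 and Oasl2 on 11 each.

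The cells were sorted from spleen and lymph nodes of C57BL/6J mice as CD4+ CD44- CD62L+ CD25-, and their total RNA was hybridised to 18 Affymetrix whole-genome mouse arrays. STAT3-deficient cells carried the Cd4-Cre transgene, which acts in T cells, together with the Stat3 allele C57BL6-STAT3<tm1Dlv>, and the control cells were wild type (WT). Cells of each genotype were kept for 3 hours with IL-27 at 20 ng/ml, with IL-6 at 20 ng/ml or in medium alone, with 3 arrays in each of the 6 groups. The series calls the arrays of a group biological triplicates but gives neither the age or sex of the mice nor the number of mice behind an array, so p-values measure the spread between these arrays. The arrays of a group are called here by the numbers 1 to 3 of their titles.

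OAS proteins are sensors of double-stranded RNA in the cytoplasm. Bound to such RNA, the enzymes of the family join ATP into short oligoadenylates, messengers that lead to the breakdown of viral and cellular RNA, and phosphodiesterases such as that encoded by Pde12 remove these messengers again. Oas1a, Oas2 and Oas3 encode enzymes that differ in the number of OAS units they carry, while Oasl1 and Oasl2 encode OAS-like proteins with ubiquitin-like domains at their end. In mouse, Oasl2 has kept the enzyme activity and Oasl1 has not, and Oasl1 is known to hold back the translation of Irf7 messenger RNA. Genes of the family are classic targets of interferons, whose signalling acts through the interferon-stimulated response element (ISRE) and the gamma-activated site (GAS). IL-27 and IL-6 share the receptor chain encoded by Il6st, and both activate STAT3.

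Signals are given as normalised signal, in the linear units of the deposited values after quantile normalisation, and changes as log2 differences of signal plus 32 with the standard error (SE) of a limma model for 3 arrays per group. A change was called at a Benjamini-Hochberg adjusted p under 0.05 over all probe sets tested. In bulk RNA such as this, fewer cells that express a gene and less RNA of it per cell cannot be told apart. As deposited, the median signal of an array was 131.5 to 190.4 units in STAT3-deficient cells and 104.4 to 126.8 units in WT cells. The Stat3 probe set, whose position relative to the deleted part is not known here, had 3340 to 4608 units with IL-27, 2208 to 2525 units with IL-6 and 1126 to 1283 units in medium in STAT3-deficient cells. WT cells had 7231 to 8547 units with IL-27, 9217 to 10319 units with IL-6 and 2293 to 2940 units in medium. STAT3-deficient cells were lower by a log2 difference of -0.91 with IL-27, -1.98 with IL-6 and -1.11 in medium (SE 0.12 each, adjusted p = 8.98e-05, 2.32e-09 and 1.15e-05). Stat3 itself rose in STAT3-deficient cells by 1.77 with IL-27 (adjusted p = 6.65e-09) and 1.00 with IL-6 (adjusted p = 2.92e-05), and in WT cells by 1.57 and 1.88 (adjusted p = 4.35e-08 and 4.34e-09). Of 10 naive CD4+ T cell markers, 7 had a probe set of their own, Cd4, Cd3e, Cd3d, Cd3g, Ccr7, Lef1 and Il7r.

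All 5 genes lie on mouse chromosome 5, in a pair of clusters. Oasl2 and Oasl1 are immediate neighbours in the RefSeq order of coding genes, and Oas2, Oas3 and Oas1a belong to a second cluster with the other Oas1 genes. The promoters of 4 of the 5 were in the RefSeq table (GRCm38.p6). The 150 bases before the annotated start are printed below on the gene's strand, 5′ to 3′, because known regulators of the family act on short elements there. Capitals mark matches, searched on both strands, to an ISRE core of a pair of GAAA runs with 2 bases of any kind between them, or to a GAS motif of TTC and GAA with 3 bases of any kind between them. The windows are chr5:120907526-120907675 on the minus strand for Oas1a, chr5:120777660-120777809 on the minus strand for Oas3, chr5:114923090-114923239 on the plus strand for Oasl1 and chr5:114896784-114896933 on the plus strand for Oasl2.
Oas1a: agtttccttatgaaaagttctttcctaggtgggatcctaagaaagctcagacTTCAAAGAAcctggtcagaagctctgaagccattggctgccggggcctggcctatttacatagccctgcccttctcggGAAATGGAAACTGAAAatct
Oas3: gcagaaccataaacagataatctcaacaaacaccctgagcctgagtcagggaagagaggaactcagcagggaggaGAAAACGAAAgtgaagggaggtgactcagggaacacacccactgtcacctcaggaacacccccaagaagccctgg
Oasl1: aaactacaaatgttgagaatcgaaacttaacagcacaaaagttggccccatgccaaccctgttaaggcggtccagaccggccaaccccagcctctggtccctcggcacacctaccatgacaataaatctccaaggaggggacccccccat
Oasl2: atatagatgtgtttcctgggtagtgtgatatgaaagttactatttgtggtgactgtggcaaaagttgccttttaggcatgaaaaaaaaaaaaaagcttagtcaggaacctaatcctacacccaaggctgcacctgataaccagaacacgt

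The Oas1a window held a pair of ISRE cores that overlap each other, at positions -20 to -11 and -14 to -5 relative to the start, and a GAS match at -98 to -90. The Oas3 window held 1 ISRE core at -75 to -66. No match to either motif was found in the 300 bases searched around the Oasl1 and Oasl2 starts, which says only that these letters are absent from those windows. Over 32851 promoters of the same 300 bases, 3.44% held the ISRE core and 8.3% the GAS motif. Among the 8 OAS family promoters in the table, 4 held the ISRE core and 1 the GAS motif.

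Oas1a encodes an active enzyme of the Oas1 subgroup. Its signal was 2893, 2593 and 1737 units in STAT3-deficient cells with IL-27, 2999, 3082 and 1393 units in STAT3-deficient cells with IL-6, and 610, 576 and 426 units in STAT3-deficient cells in medium, on arrays 1, 2 and 3. In WT cells it was 1740, 1679 and 1598 units with IL-27, 1323, 912 and 936 units with IL-6, and 355, 439 and 286 units in medium. Every cytokine-treated array lay above every medium array, and array 3 was the lowest of each STAT3-deficient group. In order of mean level, STAT3-deficient cells with IL-27, STAT3-deficient cells with IL-6 and WT cells with IL-27 each overlapped the next, WT cells with IL-6 lay apart from both neighbours, and the 2 medium groups overlapped. In STAT3-deficient cells the log2 change was 2.08 ± 0.25 with IL-27 (adjusted p = 2.08e-05) and 2.08 ± 0.25 with IL-6 (adjusted p = 3.4e-05). In WT cells it was 2.14 ± 0.25 with IL-27 (adjusted p = 1.77e-05) and 1.47 ± 0.25 with IL-6 (adjusted p = 7.61e-04). These 4 calls held in all 31 alternative settings.

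Oas2 encodes an enzyme built of repeated OAS units. Its signal was 2570, 2011 and 2145 units in STAT3-deficient cells with IL-27, 2718, 2321 and 1753 units in STAT3-deficient cells with IL-6, and 169, 229 and 324 units in STAT3-deficient cells in medium. In WT cells it was 1750, 1155 and 1505 units with IL-27, 1698, 1220 and 1103 units with IL-6, and 217, 191 and 194 units in medium. In normalised signal the 6 groups formed 3 levels that did not overlap. Both cytokines in STAT3-deficient cells were on top, both cytokines in WT cells below them, and both medium groups at the bottom. The top and middle levels nearly touched, at 1753 units (STAT3-deficient array 3 with IL-6) and 1750 units (WT array 1 with IL-27). As deposited they overlapped, with 1712 units on that STAT3-deficient array, and 1807.6 and 1750.4 units on WT array 1 with IL-27 and IL-6. The change with IL-27 was 3.09 ± 0.21 in STAT3-deficient cells (adjusted p = 5.81e-09) and 2.67 ± 0.21 in WT cells (adjusted p = 5.6e-08). With IL-6 it was 3.09 ± 0.21 in STAT3-deficient cells (adjusted p = 8.9e-09) and 2.54 ± 0.21 in WT cells (adjusted p = 1.26e-07). All 4 calls held in the 31 alternative settings, and of the 5 genes Oas2 had the smallest p in each of these 4 comparisons.

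Oas3 encodes the longest enzyme of the family. It had 460, 701 and 860 units in STAT3-deficient cells with IL-27, 708, 825 and 650 units in STAT3-deficient cells with IL-6, and 59, 74 and 62 units in STAT3-deficient cells in medium. In WT cells it had 363, 217 and 202 units with IL-27, 289, 60 and 160 units with IL-6, and 53, 37 and 39 units in medium. All 6 cytokine arrays of STAT3-deficient cells lay above all 6 of WT cells, and WT array 2 with IL-6 was near the medium level. The change with IL-27 was 2.83 ± 0.33 in STAT3-deficient cells (adjusted p = 1.12e-05) and 1.93 ± 0.33 in WT cells (adjusted p = 0.00119). With IL-6 it was 2.97 ± 0.33 in STAT3-deficient cells (adjusted p = 9.9e-06) and 1.26 ± 0.33 in WT cells (adjusted p = 0.0243). The last call was lost when WT array 1 with IL-6 was left out (0.84, adjusted p = 0.161), array 3 with IL-6 (1.21, adjusted p = 0.0911), or medium array 2 or 3 (1.20 and 1.22, adjusted p = 0.0898 and 0.0706), and in a fit on only the arrays compared (1.26 ± 0.44, adjusted p = 0.131).

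Oasl1, the OAS-like gene without enzyme activity, changed least in log2 terms in each of these 4 comparisons. It had 590, 499 and 498 units in STAT3-deficient cells with IL-27, 646, 502 and 467 units in STAT3-deficient cells with IL-6, and 180, 262 and 165 units in STAT3-deficient cells in medium. In WT cells it had 391, 336 and 433 units with IL-27, 353, 230 and 241 units with IL-6, and 226, 128 and 214 units in medium. The cytokine arrays of STAT3-deficient cells lay above every other array, and WT cells with IL-6 overlapped WT cells with IL-27. The change with IL-27 was 1.28 ± 0.21 in STAT3-deficient cells (adjusted p = 7.35e-04) and 0.94 ± 0.21 in WT cells (adjusted p = 0.0138). The WT call was lost without medium array 2 (0.72, adjusted p = 0.106) or without IL-27 array 3 (0.86, adjusted p = 0.0779). With IL-6 the change was 1.29 ± 0.21 in STAT3-deficient cells (adjusted p = 0.00109) and 0.48 ± 0.21 in WT cells, which was not called (adjusted p = 0.261).

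Oasl2, the OAS-like gene that has kept enzyme activity in mouse, had the largest change with IL-27 in each genotype and the widest spread. It had 147, 2231 and 3596 units in STAT3-deficient cells with IL-27, 79, 1705 and 2287 units in STAT3-deficient cells with IL-6, and 20, 80 and 113 units in STAT3-deficient cells in medium. In WT cells it had 2652, 2295 and 2270 units with IL-27, 740, 451 and 293 units with IL-6, and 127, 78 and 33 units in medium. Array 1 was far below arrays 2 and 3 in all 3 STAT3-deficient groups, while WT array 1 was the highest of each WT group. The change with IL-27 was 3.59 ± 0.97 in STAT3-deficient cells (adjusted p = 0.0445) and 4.54 ± 0.97 in WT cells (23.3-fold, adjusted p = 0.00903). With IL-6 it was 3.02 ± 0.97 in STAT3-deficient cells and 2.24 ± 0.97 in WT cells, and neither was called (adjusted p = 0.24 and 0.246). The call with IL-27 in STAT3-deficient cells was lost in 19 of the 31 alternative settings, among them each one that left out 1 WT array, 1 STAT3-deficient medium array, or array 2 or 3 with IL-27.

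**Figure D1:**
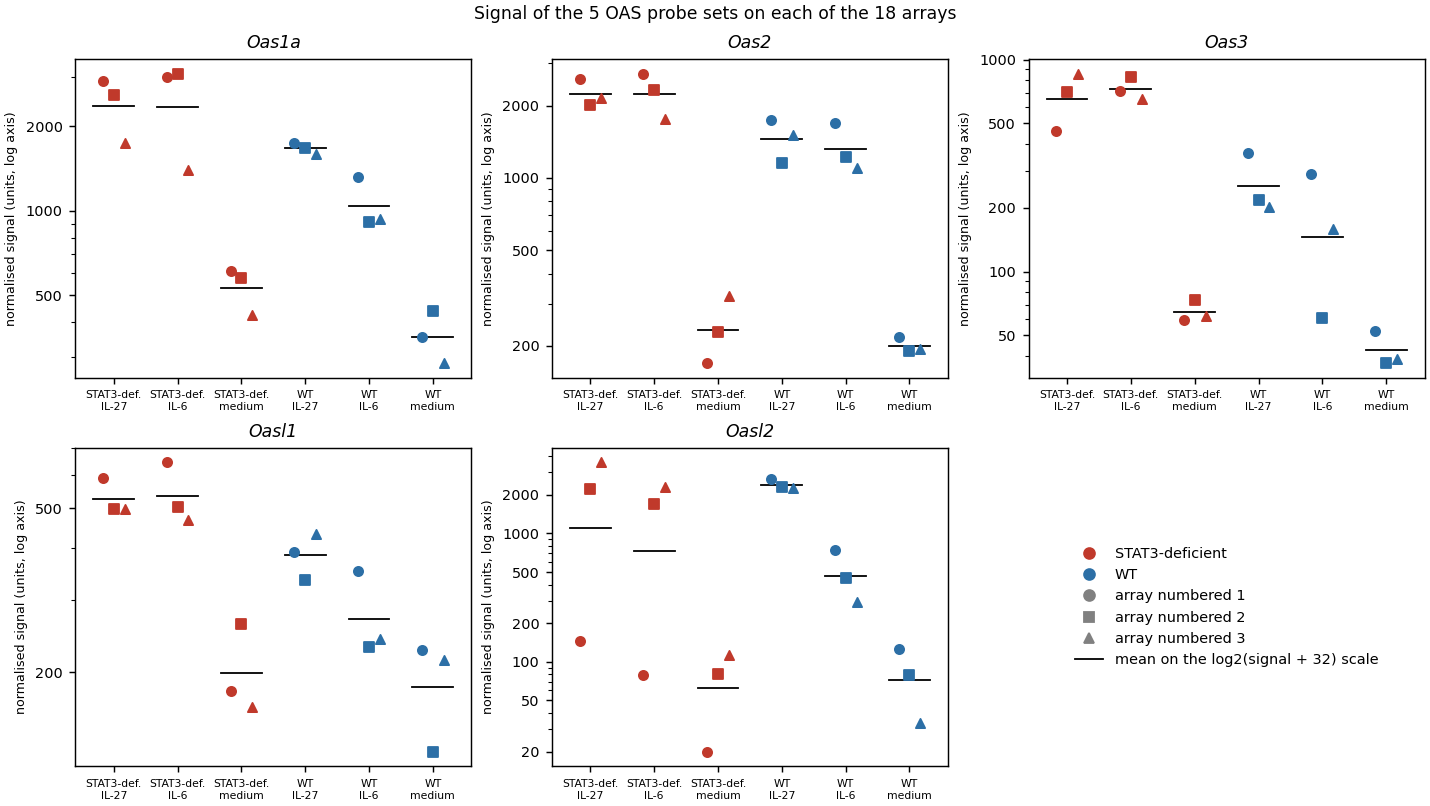
Each panel shows the normalised signal (units, log axis) of 1 OAS gene on all 18 arrays, with STAT3-deficient groups in red and WT groups in blue, symbols for the array number and a bar for the group mean on the log2(signal + 32) scale. In Oasl2 the STAT3-deficient arrays numbered 1 sit at 147, 79 and 20 units, below the other arrays of their groups.

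The spread of Oasl2 was examined further, since the model shares 1 spread between the groups and the SE of 0.97 therefore also weighs on the WT comparisons. On the STAT3-deficient arrays numbered 1, Oasl2 lay below the mean of arrays 2 and 3 by a log2 difference of -4.00 with IL-27, -4.17 with IL-6 and -1.30 in medium. Its chromosomal neighbour Oasl1 differed there by 0.23, 0.39 and -0.18, and Oas1a by 0.44, 0.53 and 0.28. Oas2 differed by 0.30, 0.42 and -0.60, and Oas3 by -0.72, -0.047 and -0.13. On the same arrays with a cytokine, then, Oasl2 was low and Oasl1 was not, while Oas3 was lower with IL-27. Of 26860 probe sets, 2 lay at least 4-fold below both other arrays on array 1 of STAT3-deficient cells with each cytokine, Oasl2 and the early growth response gene Egr2. None lay 4-fold above in the same way, and none lay 4-fold below on WT array 1. At a 2-fold limit and in all 3 treatments, 4 probe sets lay below on array 1 of STAT3-deficient cells: Oasl2, Cnih2, Rnf157 and Nr4a2. In WT cells Nr4a2 was also lowest on array 1 in each treatment, at 591 units with IL-27, 485 with IL-6 and 761 in medium. Egr2 was lowest on WT array 1 with IL-27 (316 units) and in medium (343 units), though not with IL-6. Oasl2 and Rnf157 were lowest on WT array 1 in no treatment, and Cnih2 in medium only. These genes were named after their values were seen, and the cause of the low values was not tested.

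The 3 STAT3-deficient arrays numbered 1 were also left out, a setting added after seeing the data and chosen for their low Oasl2. The SE of Oasl2 was 0.31 in WT comparisons there. The change of Oasl2 in WT cells was then 4.54 ± 0.31 with IL-27 (adjusted p = 5.08e-08) and 2.24 ± 0.31 with IL-6 (adjusted p = 1.39e-04). In STAT3-deficient cells, with 2 arrays left per group, it was 4.49 ± 0.38 with IL-27 (adjusted p = 1.11e-06) and 3.98 ± 0.38 with IL-6 (adjusted p = 7.49e-06). All 4 comparisons were thus called for Oasl2 in this setting. Because the arrays were chosen by their Oasl2 values, these calls only describe the remaining arrays. Oasl1 lost its call with IL-6 in STAT3-deficient cells there (1.10, adjusted p = 0.0635).

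**Figure D2:**
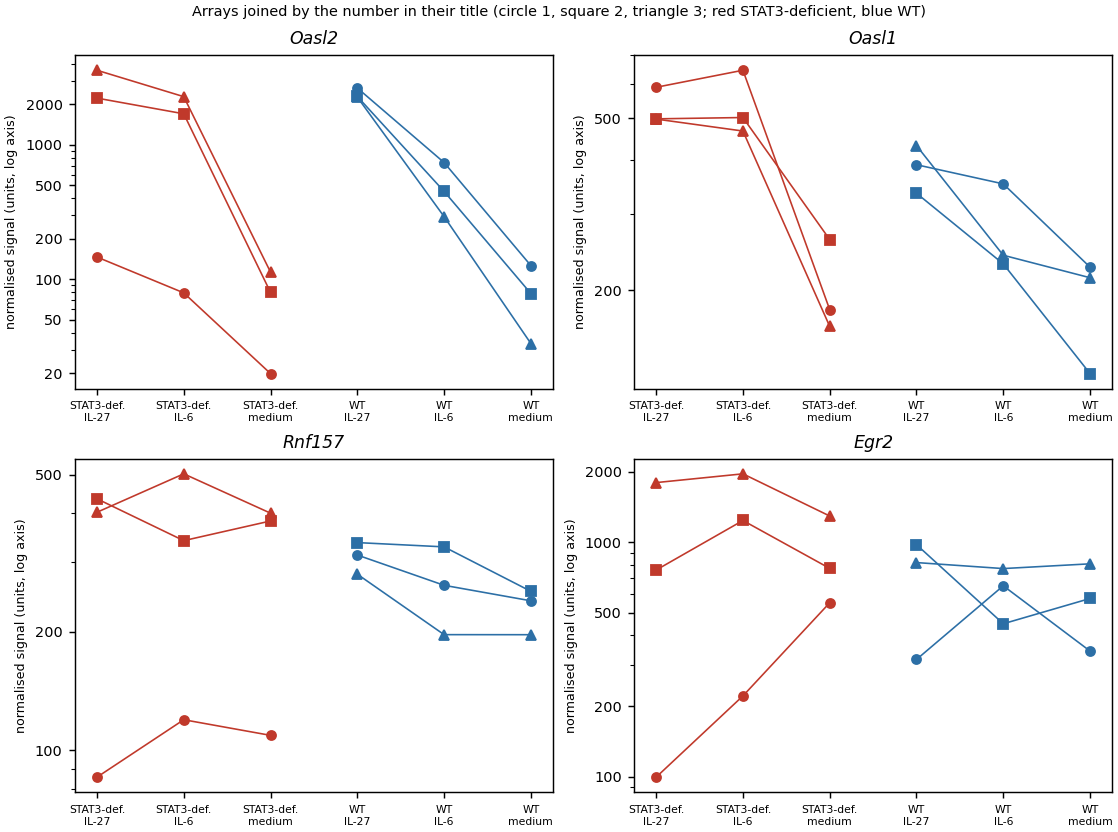
Lines join the arrays of 1 genotype that carry the same number (circle 1, square 2, triangle 3; red STAT3-deficient, blue WT) across treatments, on a log axis of normalised signal (units). STAT3-deficient array 1 is the lowest of the 3 STAT3-deficient arrays in each treatment for Oasl2, Rnf157 and Egr2, whereas for Oasl1 it is the highest of them with either cytokine.

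The calls against medium were then counted over the family. With IL-27, 5 of 5 were called higher in STAT3-deficient cells, where 2.62% of all probe sets were, and 5 of 5 in WT cells, where 1.99% were. With IL-6, 4 of 5 were called higher in STAT3-deficient cells (1.33% of all probe sets) and 3 of 5 in WT cells (2.97%). The median change of the 5 members with IL-27 was 2.83 in STAT3-deficient cells and 2.14 in WT cells, beside medians over all probe sets of -0.022 and -0.027. With IL-6 the members' median was 2.97 in STAT3-deficient cells and 1.47 in WT cells, beside -0.017 and -0.0073 over all. The 2 comparisons within a genotype share their medium arrays.

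**Figure D3:**
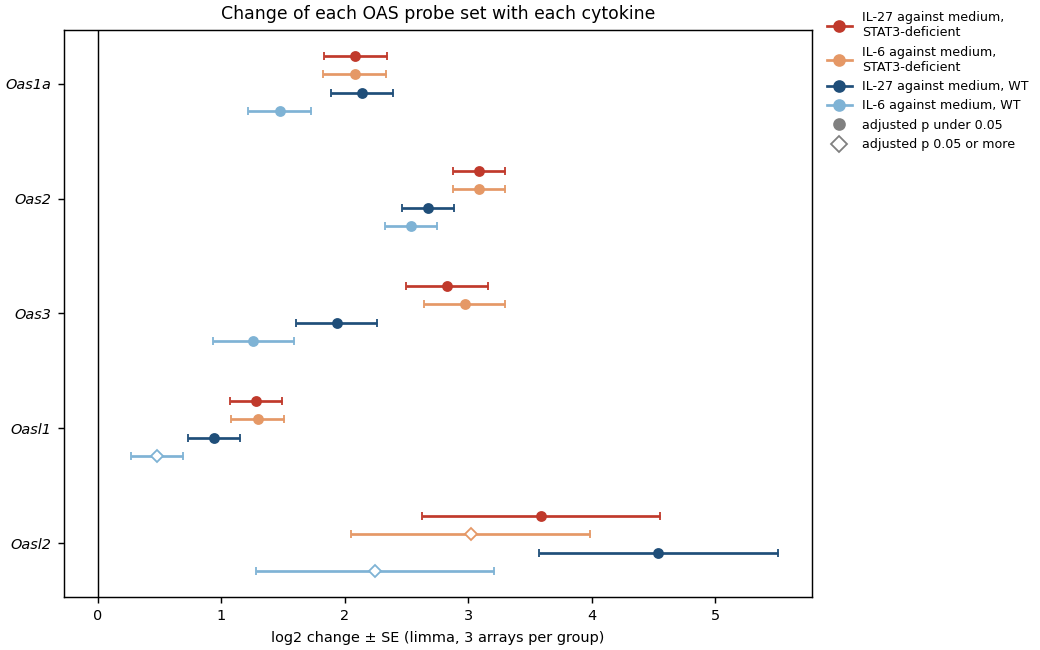
The log2 change of each OAS gene with each cytokine against medium is plotted with its SE (3 arrays per group), filled where the adjusted p is under 0.05 and open where it is not. Oas2 lies between 2.54 and 3.09 in all 4 comparisons, and Oasl2 has the widest error bars.

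IL-27 was then set against IL-6 directly. In STAT3-deficient cells 0 of 5 members differed in limma (0.205% of all probe sets did), and 0 of 5 had an unadjusted p under 0.05. The difference there was 0.0045 for Oas1a (95% interval -0.53 to 0.54), 0.00084 for Oas2 (-0.44 to 0.44), -0.14 for Oas3 (-0.83 to 0.55), -0.016 for Oasl1 (-0.46 to 0.43) and 0.57 for Oasl2 (-1.46 to 2.60). The intervals leave room for differences in either direction, widest for Oasl2. In WT cells 0 of 5 were called as well (2.32% of all probe sets were), although 3 of 5 had an unadjusted p under 0.05. The WT difference was 0.67 ± 0.25 for Oas1a (adjusted p = 0.294) and 0.13 ± 0.21 for Oas2 (adjusted p = 0.954). Every IL-27 array of Oas1a lay above every IL-6 array, as for 8.53% of all probe sets. The difference was 0.67 ± 0.33 for Oas3 (adjusted p = 0.515) and 0.46 ± 0.21 for Oasl1 (adjusted p = 0.455). For Oasl2 it was 2.30 ± 0.97 (adjusted p = 0.381), again with every IL-27 array above every IL-6 array. Without the STAT3-deficient arrays numbered 1 it was called (2.30 ± 0.31, adjusted p = 2.71e-04). Those arrays were left out for their low Oasl2, which made the shared spread smaller, so this call is no independent test. The Oasl2 value is a 4.91-fold higher signal with IL-27 than with IL-6 in WT cells, whereas Oas2 differed by 1.10-fold. Set against each other between the genotypes, the differences between cytokines were called for 0 of 5 members (0.827% of all probe sets were called), with 0 of 5 at an unadjusted p under 0.05.

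Whether the response to a cytokine differed by genotype was tested as an interaction. For IL-27, 0 of 5 members were called (0.00745% of all probe sets were) and 0 of 5 had an unadjusted p under 0.05, with differences from -0.95 for Oasl2 to 0.89 for Oas3. For IL-6, 0 of 5 were called (2.21% of all probe sets were) and 2 of 5 had an unadjusted p under 0.05. The IL-6 change in STAT3-deficient cells exceeded that in WT cells by 1.71 ± 0.47 for Oas3 (adjusted p = 0.068; 95% interval 0.73 to 2.69) and by 0.81 ± 0.30 for Oasl1 (adjusted p = 0.24; 0.19 to 1.44). The adjusted p of Oas3 ran from 0.00898 to 0.187 over the alternative settings, and it was called in 3 of 31, one of which left out WT array 1 with IL-6 (2.13, adjusted p = 0.00898). For Oas1a the difference was 0.61 ± 0.36 (adjusted p = 0.577), for Oas2 0.55 ± 0.30 (adjusted p = 0.521) and for Oasl2 0.78 ± 1.37 (adjusted p = 0.9). Without the STAT3-deficient arrays numbered 1, left out for their low Oasl2, Oasl2 differed by 1.73 in the same direction and was not called (adjusted p = 0.118).

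The levels themselves were also compared between genotypes within each treatment. With IL-6, 4 of 5 members were higher in STAT3-deficient than in WT cells, where 9.96% of all probe sets were higher and 20.4% were called either way. The difference was 2.08 ± 0.33 for Oas3 (4.24-fold, adjusted p = 1.76e-04), 1.15 ± 0.25 for Oas1a (adjusted p = 0.00353), 0.91 ± 0.21 for Oasl1 (adjusted p = 0.00493) and 0.74 ± 0.21 for Oas2 (adjusted p = 0.0172). In normalised signal the groups did not overlap for these 4 genes, nor for 17.9% of all probe sets in that direction. As deposited, the Oas2 groups overlapped, with 1712 units on STAT3-deficient array 3 and 1750.4 units on WT array 1. The Oas2 call was lost without WT IL-6 array 2 or 3 (0.69 and 0.62, adjusted p = 0.0663 and 0.081), and without STAT3-deficient IL-6 array 1 or 2 (0.60 and 0.71, adjusted p = 0.0699 and 0.0573), and with arrays centred on their median in place of quantile normalisation (0.38 ± 0.25, adjusted p = 0.284). Oasl2 differed by 0.63 ± 0.97 (adjusted p = 0.696). Without the STAT3-deficient arrays numbered 1 it differed by 2.02. Those arrays were left out because Oasl2 was low on them, so that value is no test of a genotype difference.

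With IL-27, 1 of 5 members was higher in STAT3-deficient cells, Oas3 (1.27 ± 0.33, adjusted p = 0.0152), where 7.42% of all probe sets were. Without STAT3-deficient array 3 or WT array 2 or 3 of that treatment the Oas3 call was lost (1.08, 1.17 and 1.13, adjusted p = 0.0623, 0.06 and 0.0605). The difference was 0.61 ± 0.21 for Oas2 (adjusted p = 0.0581), 0.49 ± 0.25 for Oas1a (adjusted p = 0.214), 0.43 ± 0.21 for Oasl1 (adjusted p = 0.187) and -1.10 ± 0.97 for Oasl2 (adjusted p = 0.482). Oas2 was called at adjusted p = 0.0407, 0.0386 and 0.0499 when STAT3-deficient medium array 1, medium array 3 or IL-6 array 1 was left out of the shared spread. In medium, 0 of 5 were called (24.3% of all probe sets were), with 1 of 5 at an unadjusted p under 0.05, and the differences ran from -0.15 for Oasl2 to 0.54 for Oas1a. On the deposited scale, where the median of all probe sets shifted by 0.18, 4 of 5 members were called higher in medium, where 35.5% of all probe sets were called either way: Oas1a by 0.70, Oas2 by 0.62, Oas3 by 0.85 and Oasl1 by 0.54.

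**Figure D4:**
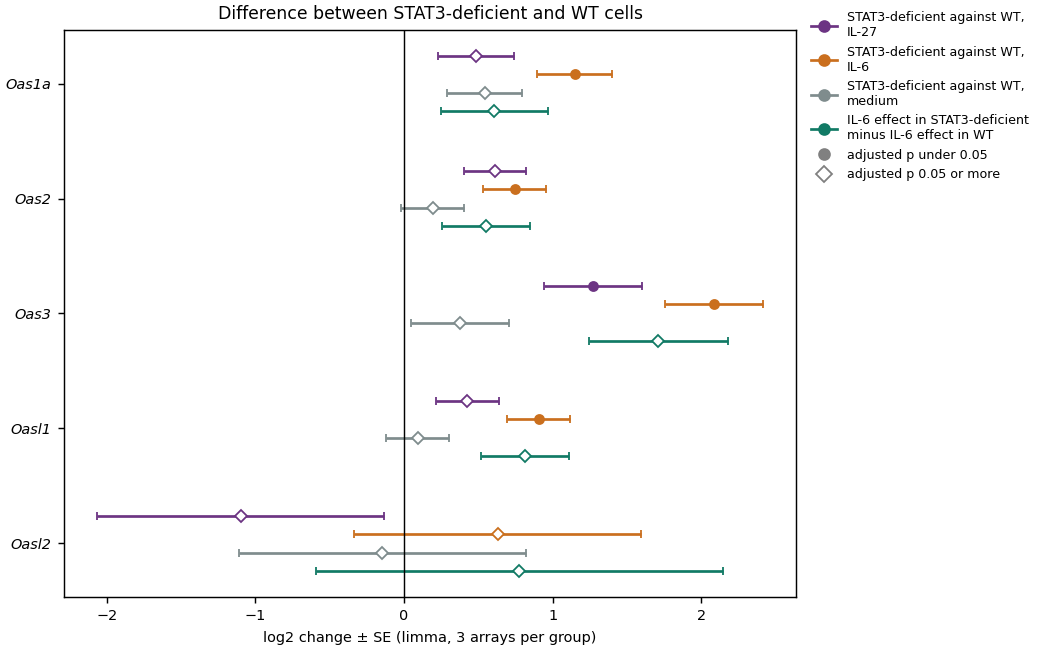
The log2 difference of each OAS gene between STAT3-deficient and WT cells is shown with its SE for IL-27, IL-6 and medium, together with the difference between the genotypes in the IL-6 change. Points are filled where the adjusted p is under 0.05; with IL-6 these are Oas1a, Oas2, Oas3 and Oasl1, with IL-27 Oas3.

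Markers of naive T cells and of other cells moved with genotype beside these differences. The 7 naive CD4+ T cell markers summed to 98239 to 110427 units in STAT3-deficient and 81708 to 83564 units in WT cells with IL-6, ranges that did not overlap. Between genotypes with IL-6, 5 of 7 were higher and 1 lower in STAT3-deficient cells, beside 9.96% higher and 10.4% lower of all probe sets. With IL-27 the naive markers summed to 87527 to 98157 units in STAT3-deficient and 85215 to 90613 units in WT cells, and in medium to 106642 to 117432 and 110902 to 113431 units. Against medium, 0 of 7 were called with IL-6 in STAT3-deficient cells (1.43% of all probe sets were), while 5 of 7 were lower in WT cells (3.22%). The part of these markers in the OAS differences was not tested. Of 11 B cell markers, 10 had a probe set of their own, and their summed signal was 2756 to 5678 units on STAT3-deficient and 1157 to 1631 units on WT arrays. Of 9 that passed the filter, 7 were higher in STAT3-deficient cells in medium, 7 with IL-6 and 5 with IL-27. Over all probe sets 11.3%, 9.96% and 7.42% were higher there. The 11 myeloid markers summed to 4254 to 9154 units on STAT3-deficient and 2332 to 3216 units on WT arrays. With IL-6, 3 of 9 were higher and 1 lower, beside 9.96% and 10.4% of all probe sets. Neither list had a member called with a cytokine against medium in either genotype, where 1.43% to 6.19% of all probe sets were. With the mean log2 signal of both lists as a covariate, which itself follows genotype, 0 of 5 OAS members were called between genotypes with IL-6 (4.01% of all probe sets were). In that fit Oas1a differed by -0.99 ± 0.41, Oas2 by 0.53 ± 0.56, Oas3 by 2.12 ± 0.89, Oasl1 by -0.0097 ± 0.52 and Oasl2 by 6.22 ± 2.16 (adjusted p = 0.122), beside 0.63 for Oasl2 without the covariate. Markers of plasmacytoid dendritic cells, which include the interferon-responsive Bst2, summed to 1629 to 2419 units with IL-27, 1368 to 2743 with IL-6 and 912 to 1171 in medium in STAT3-deficient cells. In WT cells they summed to 1377 to 1710 units with IL-27, 795 to 1234 with IL-6 and 481 to 662 in medium. The 7 measured markers of CD8 T and NK cells summed to 1855 to 2430 units on STAT3-deficient and 2029 to 3473 units on WT arrays.

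The members resembled each other across arrays, with Oasl2 apart. Over all 18 arrays, which share their groups, Pearson's r was 0.88 to 0.93 between Oas1a, Oas2, Oas3 and Oasl1 and 0.58 to 0.71 between Oasl2 and these 4. Over the 15 arrays without the STAT3-deficient ones numbered 1, which were left out for their low Oasl2, Oasl2 reached 0.88 to 0.93 with these 4. Among 11970 other genes over the 18 arrays, those most like Oas1a were Tapbp (0.97), Irf7 (0.96) and Nlrc5 (0.96). Oas2 was most like Rtp4 (0.98), Ifi27l2a (0.98) and Zbp1 (0.97), and Oas3 like Samd9l (0.95), Trim30d (0.95) and Ifih1 (0.94). Oasl1 was most like Cmtr1 (0.94), Irf7 (0.94) and Tapbp (0.93). For Oasl2 the nearest were Rnf157 (0.87), Tor1aip2 (0.86) and Wsb2 (0.86), and Rnf157 was also low on the STAT3-deficient arrays numbered 1.

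Further genes of the OAS family were measured as well. Of 7 further Oas1 genes, 5 had a probe set of their own and 3 passed the filter, Oas1b, Oas1c and Oas1e. Oas1b, listed by RefSeq as a transcribed pseudogene, was the one called with a cytokine. Its change with IL-27 was 1.25 ± 0.18 in STAT3-deficient cells (adjusted p = 1.24e-04) and 1.24 ± 0.18 in WT cells (adjusted p = 1.56e-04). With IL-6 it was 1.00 ± 0.18 in STAT3-deficient cells (adjusted p = 0.00265) and 0.34 ± 0.18 in WT cells (adjusted p = 0.37). In WT cells Oas1b was also called higher under IL-27 than under IL-6 (0.89 ± 0.18, adjusted p = 0.00614), a call that no member had in the main model. The differences of Oasl2 (2.30) and Oas1a (0.67) there were each called in 3 of 31 alternative settings. The Oas1 genes are close copies of each other, and a probe set of one may also bind RNA of another, which was not tested.

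Downstream of the synthetases, 3 genes were measured, Pde12, Abce1 and Akap7. Pde12, whose product degrades oligoadenylates, had 658, 761 and 992 units in STAT3-deficient cells with IL-27, 589, 771 and 978 units with IL-6 and 818, 779 and 890 units in medium. In WT cells Pde12 had 663, 639 and 688 units with IL-27, 1144, 1265 and 1396 units with IL-6 and 642, 568 and 846 units in medium. The 3 WT arrays with IL-6 lay above all other arrays, a pattern that none of the OAS members had. The IL-6 change of Pde12 was -0.11 ± 0.18 in STAT3-deficient cells (adjusted p = 0.951) and 0.87 ± 0.18 in WT cells (adjusted p = 0.00346). The interaction was -0.98 ± 0.25 (adjusted p = 0.0452). On the other 2 probe sets of Pde12 the WT change with IL-6 was 0.71 and 0.93, both called, and the interaction was -0.60 and -0.43, neither called. IL-27 against IL-6 in WT cells gave -0.90 ± 0.18 for Pde12 (adjusted p = 0.00622). Abce1 was called in no comparison. Akap7, which encodes a protein with oligoadenylate phosphodiesterase activity in mouse, was called in none on its probe set past the filter. A second Akap7 probe set failed the filter. In the limma fit without a filter it was higher by 0.94 in STAT3-deficient than in WT cells in medium (adjusted p = 0.0358), beside 0.51 on the first.

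Other sensors and the interferon signalling factors were measured beside the OAS genes. Over all probe sets, 2.62% in STAT3-deficient and 1.99% in WT cells were called higher with IL-27, and 1.33% and 2.97% with IL-6. Of 9 sensors and adaptors of double-stranded RNA and DNA past the filter, 6 were called higher with IL-27 in each genotype, with IL-6 6 in STAT3-deficient and 5 in WT cells. The largest WT changes with IL-27 were those of Zbp1 (3.82 ± 0.21), Ifih1 (1.71 ± 0.27), Dhx58 (1.46 ± 0.28), Ddx58 (1.09 ± 0.10) and Eif2ak2 (1.07 ± 0.21). Ifih1, Dhx58 and Ddx58 encode cytoplasmic RNA helicases, and Eif2ak2 the RNA-activated kinase PKR. Of 9 measured interferon signalling factors and inhibitors, 8 were higher with IL-27 in each genotype, with IL-6 8 in STAT3-deficient and 6 in WT cells. In WT cells with IL-27 these were led by Socs1 (3.28 ± 0.20), Irf1 (2.77 ± 0.09), Irf8 (2.74 ± 0.18), Stat2 (2.11 ± 0.17) and Irf9 (2.01 ± 0.09), of which Stat2 and Irf9 encode partners in the complex that binds the ISRE. Of the interferon genes Ifnb1, Ifng, Ifna4 and Ifna2, 0 of 4 passed the filter, with signals of 6 to 149 units over all arrays. Of 7 receptor chains of IL-6, IL-27 and the interferons, 1 was higher and 0 were lower with IL-27 in STAT3-deficient cells, and 1 was higher and 1 lower in WT cells. With IL-6, 0 of 7 were called in STAT3-deficient cells, and 2 were higher and 1 lower in WT cells. Over all probe sets, 0.983% in STAT3-deficient and 1.07% in WT cells were called lower with IL-27, and 0.0968% and 3.22% with IL-6.

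The test of genotype in the IL-6 response, which no OAS member passed, was passed by 4 of the 9 interferon signalling factors and inhibitors. Of the 9 sensors and adaptors, 1 passed. All of these were higher in STAT3-deficient cells. Over all probe sets 1.25% were called higher and 2.21% either way. Usp18, whose product restrains the type I interferon receptor, changed by 2.49 ± 0.27 with IL-6 in STAT3-deficient cells and 0.19 ± 0.27 in WT cells, a difference of 2.30 ± 0.38 (adjusted p = 0.00172). Irf7, a transcription factor of interferon genes, changed by 2.50 ± 0.15 in STAT3-deficient and 1.21 ± 0.15 in WT cells (difference 1.29 ± 0.21, adjusted p = 0.00186). Zbp1 changed by 3.94 ± 0.21 in STAT3-deficient and 2.62 ± 0.21 in WT cells (difference 1.32 ± 0.29, adjusted p = 0.02). Stat2 changed by 2.08 ± 0.17 in STAT3-deficient and 1.06 ± 0.17 in WT cells (difference 1.02 ± 0.25, adjusted p = 0.0331). The OAS members differed in the same direction, by 0.55 to 1.71, without a call. The median difference was 0.28 over the 9 signalling factors and 0.50 over the 9 sensors and adaptors. Socs1 (-0.061) and Ddx58 (-0.019) did not share the direction. Usp18, Irf7, Zbp1 and Stat2 were described here because they passed, after their values were seen.

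**Figure D5:**
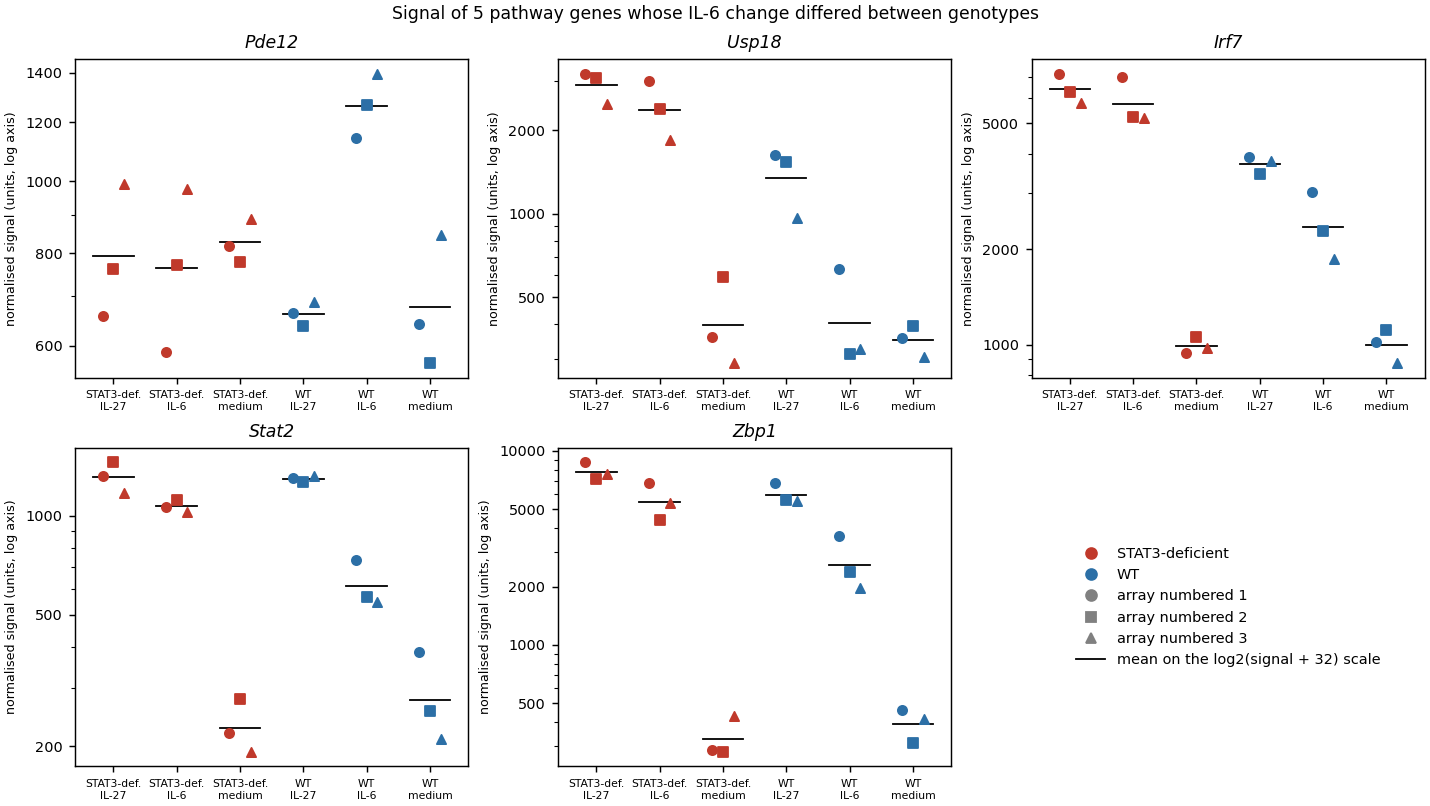
Normalised signal (units, log axis) of Pde12, Usp18, Irf7, Stat2 and Zbp1 is plotted by array as for the OAS genes, with STAT3-deficient groups in red, WT groups in blue and a bar for the group mean. Pde12 is highest on the 3 WT arrays with IL-6, and the other 4 genes lie higher with IL-6 in STAT3-deficient than in WT cells.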

How the data were processed

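Total RNA was measured on 18 arrays. GCOS is named as the software per the submitters' processing notes, with no version or settings. What the authors deposited is an intensity per probe set on a linear scale, whose mean, 2% trimmed off either end, was 500 on each array. Signals were transformed to log2 of the deposited signal plus 32 and quantile normalised, since array medians differed 1.82-fold. The added constant shrinks changes of weak signals. Probe sets above the median of their own array on at least 3 arrays were kept, 26860 of 45037. A limma model (version 3.58.1, R 4.3.3) with a mean per group was fitted to all 18 arrays, with a variance trend, 12 residual and 6.39 prior degrees of freedom, and 11 comparisons were made, with 1 more added later. Tests were two-sided, and the script was tested on simulated data. Symbols came from the platform annotation. The members and lists were chosen with earlier results of these data known. Named genes are the members, the 3 genes most like each over the arrays, and up to 5 of each list with the largest change with IL-27 in WT cells. Irf7 and Usp18 among the signalling factors, Il6st, Ifngr2, Il7r, Klrd1, Stat3, and Egr2, Cnih2, Rnf157 and Nr4a2 on array 1 go beyond that last part of the rule. Samples of the same number in a genotype correlated at -0.15 to 0.34 in their deviations from group means (median 0.12, 18 pairs). Samples of different numbers in a genotype correlated at -0.51 to 0.29 (median -0.043, 36 pairs). The main model did not pair samples by number, and fits with the number as a block were run as alternatives. Whether samples of the same number share an origin was not tested. Arrays limit precision by their number. Alternatives were other scalings, constants, filters and models, marker covariates and leaving out arrays.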

Additional observations from a re-analysis of the deposited data

Results flagged for a closer look

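The response of some genes around the OAS family differed between the genotypes by the interaction test. The IL-6 change in STAT3-deficient cells minus that in WT cells was 2.30 for Usp18, 1.32 for Zbp1, 1.29 for Irf7, 1.02 for Stat2, 0.81 for the receptor chain gene Ifngr2 (adjusted p = 0.0196) and 0.79 for Irf1 (adjusted p = 0.00193). It was -0.98 for Pde12, -0.90 for Il6st (-0.030 in STAT3-deficient and 0.87 in WT cells, adjusted p = 0.00519) and -0.87 for Stat3 (1.00 in STAT3-deficient and 1.88 in WT cells, adjusted p = 0.0077). Among the marker lists it was 0.55 for Il7r (adjusted p = 0.0283) and 1.19 for Klrd1 (adjusted p = 0.00562). The difference between IL-27 and IL-6 was smaller in STAT3-deficient than in WT cells for Irf1, by -0.89 (0.84 in STAT3-deficient and 1.74 in WT cells, adjusted p = 0.0013), and for Irf9, by -0.62 (-0.02 in STAT3-deficient and 0.61 in WT cells, adjusted p = 0.0225). For Il6st it was 0.15 in STAT3-deficient and -1.10 in WT cells, 1.25 apart (adjusted p = 4.59e-04), and for Stat3 0.76 in STAT3-deficient and -0.31 in WT cells, 1.07 apart (adjusted p = 0.00271). No OAS member met this test. Several B cell and myeloid markers were higher in STAT3-deficient cells, and their part in these differences was not tested. The low Oasl2 values on the STAT3-deficient arrays numbered 1 are given as values, with no test of single arrays.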

How the results depend on the processing

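Under all 31 settings the calls against medium held for Oas1a, Oas2 and Oas3 with IL-27 in both genotypes, for Oas1a and Oas2 with IL-6 in both, and for Oas3 with IL-6 in STAT3-deficient cells. They also held for Oasl1 with IL-27 in STAT3-deficient cells and for Oasl2 with IL-27 in WT cells (highest adjusted p 0.0271 and 0.0467). Of the 5 members, 0 were called between genotypes in medium, and 4 on the deposited scale, 1 with the number as a replicate block, 1 without the STAT3-deficient arrays numbered 3, 1 with the marker covariate. Of the 5 members, 0 were called for the IL-6 interaction, and 1 with an added constant of 64, 1 with a replicate block within genotype. Of the 5 members, 0 were called for IL-27 against IL-6 in WT cells, and 2 with only the arrays compared, 2 with a replicate block within genotype, 1 without the STAT3-deficient arrays numbered 3, 1 without the STAT3-deficient arrays numbered 1. Of the 5 members, 1 was called between genotypes with IL-27, and 2 with only the arrays compared, 2 with the number as a replicate block, 2 without the STAT3-deficient arrays numbered 3. Of the 5 members, 4 were called between genotypes with IL-6, 3 with median centring, and 0 with the marker covariate. Oasl2 was called there as well without the STAT3-deficient arrays numbered 1, which were left out for its low values. Leaving out each array in turn gave counts of 0 to 1 for the IL-6 interaction, 0 to 2 between genotypes with IL-27 and 3 to 4 between genotypes with IL-6. Signs opposite to the reported ones, on the deposited scale, were -0.050 for Oas2 for the IL-27 interaction, -0.021 for Oasl1 for the IL-27 interaction, 0.32 for Oasl2 between genotypes in medium. With median centring they were -0.0023 for Oasl1 between genotypes in medium. Without the STAT3-deficient arrays numbered 3 they were -0.15 for Oas1a for IL-27 against IL-6 in STAT3-deficient cells, -0.14 for Oas2 for IL-27 against IL-6 in STAT3-deficient cells, 0.011 for Oas1a for the IL-27 interaction, -0.018 for Oas2 between genotypes in medium, -0.17 for Oasl2 between genotypes with IL-6. With the marker covariate they were 0.088 for Oas1a for the IL-27 interaction, -1.51 for Oas1a between genotypes in medium, -0.013 for Oas2 between genotypes in medium, -0.79 for Oasl1 between genotypes in medium, 5.23 for Oasl2 between genotypes in medium, -0.99 for Oas1a between genotypes with IL-6, -0.0097 for Oasl1 between genotypes with IL-6, -1.42 for Oas1a between genotypes with IL-27, -0.39 for Oasl1 between genotypes with IL-27, 3.91 for Oasl2 between genotypes with IL-27. Without the STAT3-deficient arrays numbered 1 they were 0.081 for Oas3 for IL-27 against IL-6 in STAT3-deficient cells, 0.038 for Oasl1 for IL-27 against IL-6 in STAT3-deficient cells, 0.29 for Oasl2 between genotypes in medium, 0.24 for Oasl2 between genotypes with IL-27. Leave-one-out signs also varied. The range between genotypes in medium was -0.49 to 0.29 for Oasl2, -0.13 to 0.22 for Oasl1, -0.018 to 0.39 for Oas2. The range for the IL-27 interaction was -0.20 to 0.16 for Oas1a, -1.79 to 0.38 for Oasl2. The range for the cytokine difference between genotypes was -0.31 to 0.0081 for Oas2. The range for IL-27 against IL-6 in STAT3-deficient cells was -0.11 to 0.11 for Oasl1, -0.82 to 1.90 for Oasl2, -0.36 to 0.22 for Oas1a, -0.17 to 0.14 for Oas2, -0.33 to 0.096 for Oas3. The range for the IL-6 interaction was -0.024 to 2.17 for Oasl2. The range between genotypes with IL-6 was -0.17 to 2.02 for Oasl2. The range between genotypes with IL-27 was -1.94 to 0.24 for Oasl2. None of these values with a turned sign was called, except the 2 differences of Oas1a with the marker covariate in medium and with IL-27 (adjusted p = 0.0351 and 0.0454), and the cause was not tested. With the block within genotype Oasl2 was also called with IL-6 in STAT3-deficient and in WT cells (3.02 ± 0.44 and 2.24 ± 0.44). Neither block changed any other call of a member against medium, while other comparisons did change as counted above. Within a genotype 13 of 18 arrays correlated best with one of their own number, a hint from the data and not from the design. Each array had 6 possible partners, 2 of them of its own number, so part of these matches would arise without any pairing. The 18 results are not independent of each other. Over all probe sets the calls were 1663 (alternatives 996 to 2192) for IL-6 in WT cells, 624 (alternatives 376 to 909) for IL-27 against IL-6 in WT cells, 968 (alternatives 494 to 1453) for IL-27 in STAT3-deficient cells, 383 (alternatives 194 to 472) for IL-6 in STAT3-deficient cells, 55 (alternatives 17 to 93) for IL-27 against IL-6 in STAT3-deficient cells, 2 (alternatives 2 to 6) for the IL-27 interaction, 594 (alternatives 369 to 1006) for the IL-6 interaction, 6515 (alternatives 1369 to 11387) between genotypes in medium, 5477 (alternatives 1078 to 7136) between genotypes with IL-6, 3960 (alternatives 770 to 5594) between genotypes with IL-27, 222 (alternatives 81 to 423) for the cytokine difference between genotypes. The 3 arrays per group limit the precision, and Oas3 and Oasl2 lay above the median of their array on 11 of 18 arrays, so that the added constant shrinks their differences where they are weak. Alternatives were not run for genes outside the family.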
